A study of Mus musculus with 5 samples.

Results

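The Shisa genes encode single-pass membrane proteins with a cysteine-rich domain in their outer or luminal part. The 7 members described here, *Shisa2*, *Shisa3*, *Shisa4*, *Shisa5*, *Shisa6*, *Shisa7* and *Shisa9*, were taken by symbol from 34615 gene symbols measured in isolated brain microvascular fragments. *Shisa6* was chosen by its FPKM values (expression per length of exon), which were higher in hyperglycemic than in control mice, and the other 6 follow from the family name. The genotype values of *Shisa6* are therefore given as a description, with no test.

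The samples came from 3 wild-type (WT) and 2 heterozygous Ins2-AKITA mice, all males on a C57BL6 background and 26 to 38 weeks old. The AKITA mutation is carried as 1 mutant copy of the insulin 2 gene in every cell, and the animals become hyperglycemic. WT mice were littermates without the mutation, and no group had a further treatment. Fragments were captured from collagenase-treated brain with beads against PECAM1, an endothelial surface protein, and 1 RNA library was made per mouse. Neither the sample titles nor the methods mention pooling, and nothing in the labels pairs single mice.

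The family divides by what its proteins are known to do. SHISA6, SHISA7 and SHISA9 are neuronal membrane proteins of synapses. SHISA6 and SHISA9 accompany AMPA-type glutamate receptors and alter their desensitization, and SHISA7 has been tied to both AMPA and GABA-A receptors. SHISA2 and SHISA3 hold immature Frizzled and FGF receptors in the endoplasmic reticulum and so dampen Wnt and FGF signaling. SHISA5, also named scotin, is a p53-induced protein of the endoplasmic reticulum and the nuclear envelope. The role of SHISA4 is little known.

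The 3 synaptic members share the end of their coding sequence, which encodes a tail that binds PDZ-domain scaffold proteins of the postsynaptic density. The final 30 bases are shown 5′ to 3′ from the GENCODE vM1 transcripts of NCBIM37, to show how alike the 3 genes are at this point. Capitals mark the last 15 bases, stop codon included.

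*Shisa6*: acagccagcaagactGAAGTGACCGTGTGA
*Shisa7*: actgccagcaagaacGAAGTGACTGTCTGA
*Shisa9*: actaacagcaaaacaGAAGTGACTGTCTGA

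The capital stretch of *Shisa7* and *Shisa9* was identical, and that of *Shisa6* differed from each at 2 of 15 bases. Over the whole coding transcripts of the 7 members, the longest exact run shared by any pair was 21 bases, between *Shisa2* and *Shisa3*, and *Shisa6* shared at most 15 bases with another member.

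Expression was deposited as FPKM, in which fragments are divided by exon length in kilobases and by sequencing depth. From the steps between low values, the depth was estimated at 1115741 to 2826674 fragments per mouse. Small RNA and ribosomal RNA genes took 40.6% to 96.7% of the FPKM sum, and the deposited scaling was kept. All 14 endothelial markers were above 0 in every mouse, and so were all 13 neuronal, 9 astrocyte and 8 oligodendrocyte markers. The summed FPKM was 618 to 1211 for the endothelial list and 1945 to 2462 for the neuronal list, so RNA of neurons and glia was present in every library labelled as microvasculature. In such bulk samples, fewer cells of a type and less RNA per cell cannot be told apart.

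In WT mice, 5 of the 7 members lay at similar levels. *Shisa7* had the highest mean, 44.6 ± 9.58 FPKM (SD, n = 3), and was above 87.5% of the symbols tested. *Shisa4* (30.4 ± 6.65 FPKM), *Shisa5* (29.1 ± 6.43 FPKM), *Shisa6* (28.3 ± 5.63 FPKM) and *Shisa9* (26.4 ± 1.62 FPKM) followed. The ranges of each neighbouring pair in this order overlapped, so that neighbours did not differ beyond their spread, whereas *Shisa7* and *Shisa9*, at the ends, did not overlap. *Shisa2* (1.45 ± 0.655 FPKM) and *Shisa3* (1.16 ± 0.866 FPKM) were far lower, below *Shisa9* in 5 of 5 mice, and did not differ from each other beyond their spread. This comparison between genes rests on the division by exon length, and so on the transcripts to which the fragments were assigned. The annotated exons of *Shisa9* also hold coding sequence alone, and fragments from its untranslated ends do not enter its value.

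*Shisa6* (ENSMUSG00000053930) lies on the minus strand of chromosome 11 of NCBIM37 from 66025227 to 66339466. Its FPKM was 23.7, 26.6 and 34.6 in the WT group, against 76.0 and 97.9 in the Ins2-AKITA group. Both Ins2-AKITA mice were above every WT mouse, and the gap between the groups was wider than the spread within either. The means were 28.3 ± 5.63 FPKM (SD, n = 3) and 86.9 ± 15.5 FPKM (SD, n = 2), a ratio of 3.07. On the log2(FPKM + 1) scale the difference was 1.59 (standard error 0.24). It was 2.97 after rescaling to a common FPKM sum (TPM), which moved the median of all genes from -0.03 to 1.07, so that *Shisa6* stood 1.63 and 1.90 above the median of all genes with the deposited and the rescaled values. Among all 16286 symbols tested, 9.24% were likewise higher in both Ins2-AKITA mice than in any WT mouse.

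**Figure D1:**
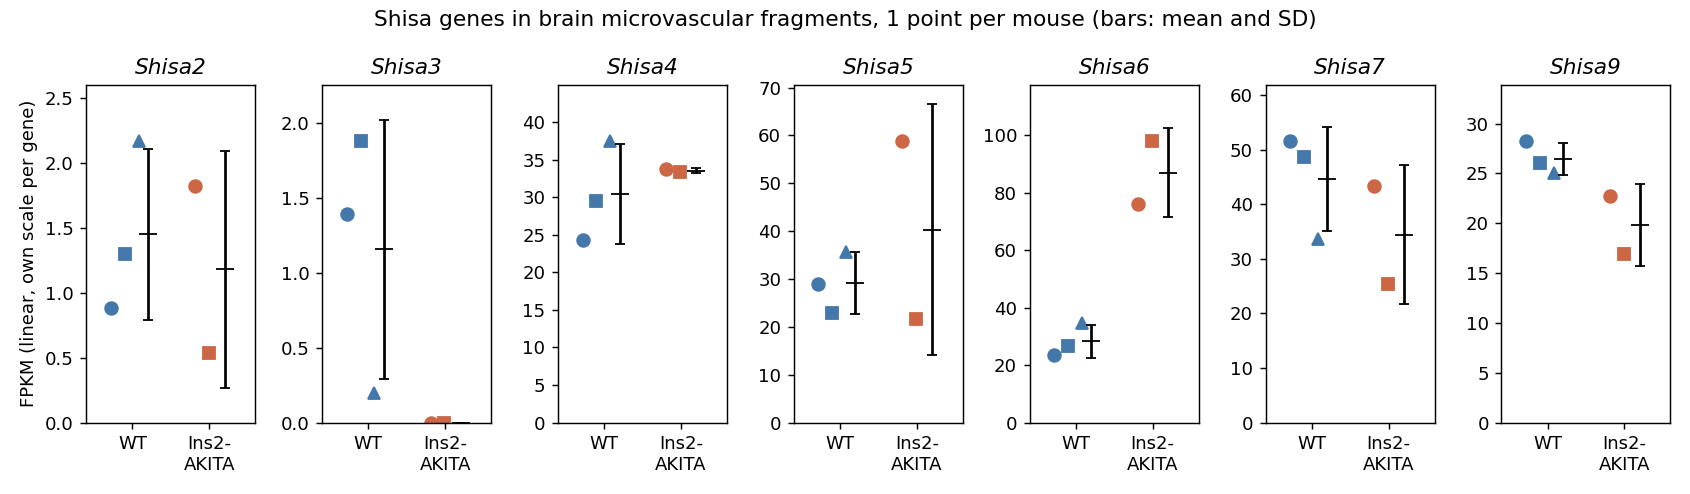
FPKM of the 7 Shisa genes (vertical axis, linear, with its own scale per gene) in 3 WT mice (blue) and 2 Ins2-AKITA mice (orange). Circles, squares and triangles are replicates 1, 2 and 3, and black bars give the mean and SD. For *Shisa6* the Ins2-AKITA mice, at 76.0 and 97.9, lie above the highest WT mouse at 34.6, while *Shisa3* is at 0 in both Ins2-AKITA mice.

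How many fragments stand behind the *Shisa6* values depends on the transcript they belong to. The annotation gives 2 coding transcripts, of 7252 and 1578 bases, and a noncoding transcript of 285 bases. The longer coding transcript ends in a 6298-base last exon and also holds an exon that the shorter one lacks. This exon, chr11:66188661-66188756 on the minus strand of NCBIM37, has 96 bases and keeps the reading frame. It is shown because reads over it would tell the coding transcripts apart.

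*Shisa6* exon: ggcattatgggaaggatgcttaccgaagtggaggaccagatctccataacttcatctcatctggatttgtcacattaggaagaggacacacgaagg

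If all *Shisa6* fragments came from the 7252-base transcript, the FPKM values would stand for 193, 245 and 687 fragments among WT and 596 and 877 among Ins2-AKITA mice. If all came from the 1578-base transcript, they would stand for 37.3, 47.4 and 133 fragments in the WT group and 115 and 169 in the Ins2-AKITA group. From the 285-base noncoding transcript alone, 2.35, 3.03 and 8.09 fragments would be enough for the WT mice and 7.25 and 10.5 for the Ins2-AKITA mice. In each of these cases WT replicate 3, the deepest library, would hold more *Shisa6* fragments than Ins2-AKITA replicate 1. A gene value sums its transcripts, and a shift of fragments between transcripts of unequal length moves it without any change in their number. Values per transcript were not analysed here, and the part of such a shift in the *Shisa6* difference was not tested.

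**Figure D2:**
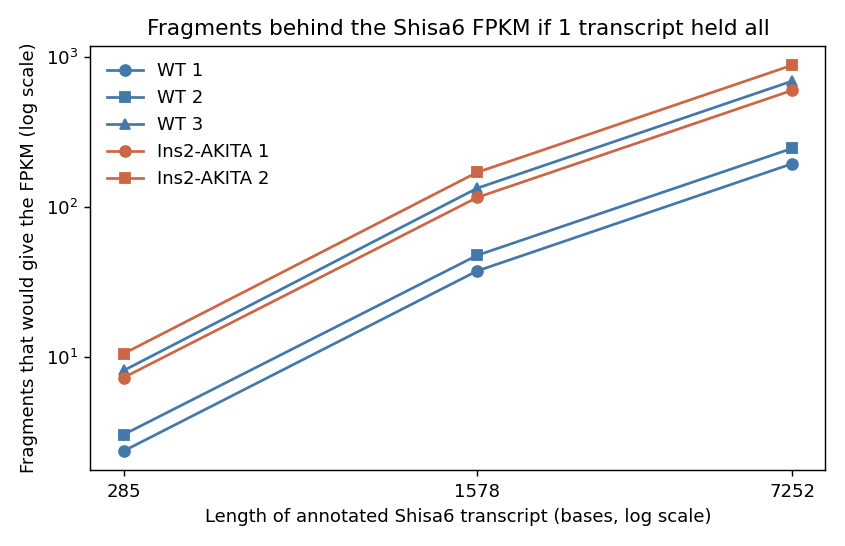
Number of fragments (vertical log axis) that would give the *Shisa6* FPKM of each mouse if all came from the annotated transcript of 285, 1578 or 7252 bases (horizontal log axis). Blue lines are WT and orange lines Ins2-AKITA mice. For the longest transcript the numbers run from 193 to 877, and for the shortest from 2.35 to 10.5.

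*Gm12296*, a long noncoding RNA gene on the opposite strand, overlaps the *Shisa6* introns but none of its exons, and had 4.29, 4.55 and 2.34 FPKM among WT and 5.63 and 0.779 among Ins2-AKITA mice, which overlap. Of the 16 protein-coding genes within 1000000 bases, 8 had a mean of at least 1 FPKM. Both Ins2-AKITA mice were above all WT mice for 2 of the 8, against 9.24% of all symbols, and below for none, against 10.3% of all symbols.

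*Shisa7* (ENSMUSG00000053550, chromosome 7 from 4777154 to 4796298, minus strand) had 51.5, 48.7 and 33.7 FPKM in the WT group and 43.4 and 25.4 in the Ins2-AKITA group. The groups overlapped, since Ins2-AKITA replicate 1 was above WT replicate 3. The log2 difference was -0.39 (standard error 0.31, adjusted p = 0.90 from limma), -0.02 without Ins2-AKITA replicate 2, and 1.18 with TPM, 0.11 above the median of all genes there. *Gm15525*, a noncoding gene on the same strand, shares 504 exon bases with *Shisa7*, and the assignment of reads between them is uncertain.

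*Shisa9* (ENSMUSG00000022494, chromosome 16 from 11984674 to 12267896, plus strand) had 28.2, 26.0 and 25.1 FPKM in WT, against 22.7 and 16.9 in Ins2-AKITA mice. Both Ins2-AKITA mice were below all WT mice with the deposited scaling, though not with TPM, and so were 10.3% of all symbols tested with the deposited scaling. The log2 difference was -0.41 (standard error 0.21, adjusted p = 0.90 from limma) and did not pass the threshold of 0.05. With TPM it was 1.05, which is 0.01 below the median of all genes, so that *Shisa9* did not stand apart under that scaling. At its longest transcript, these values correspond to 34.5, 36.1 and 74.7 fragments among WT and 26.8 and 22.7 among Ins2-AKITA mice.

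The 3 synaptic members were also set against each other within a mouse, which removes any common scaling. *Shisa6* was the highest of the 3 in WT replicate 3 and in both Ins2-AKITA mice, and *Shisa7* in WT replicates 1 and 2. *Shisa6* made up 22.9%, 26.2% and 37.0% of their summed FPKM in the WT group and 53.4% and 69.8% in the Ins2-AKITA group, and the groups did not overlap. *Shisa7* gave 49.8%, 48.1% and 36.1% in WT, against 30.6% and 18.1% in Ins2-AKITA mice. *Shisa9* was the steadiest in WT, with 27.3%, 25.7% and 26.9%, against 16.0% and 12.1% in Ins2-AKITA mice. *Shisa6* ranked first of the 7 members in both Ins2-AKITA mice, and *Shisa7* or *Shisa4* ranked first in the WT mice. These shares contain the *Shisa6* values that led to its choice and are a description.

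**Figure D3:**
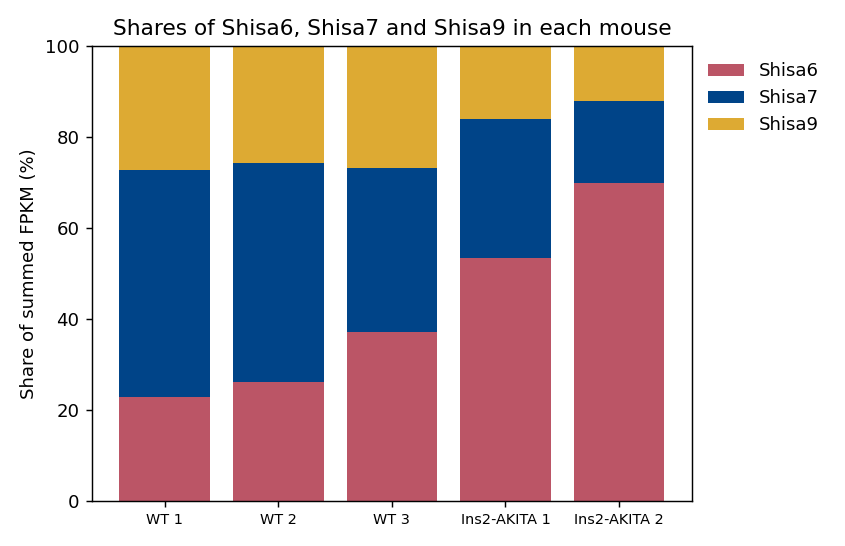
Share of *Shisa6* (red), *Shisa7* (blue) and *Shisa9* (yellow) in their summed FPKM, in percent on the vertical axis, for each of the 5 mice. The *Shisa6* share lies between 22.9% and 37.0% for WT, and at 53.4% and 69.8% for Ins2-AKITA.

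The members tied to Wnt and FGF receptors were near the limit of detection. *Shisa2* (ENSMUSG00000044461, chromosome 14 from 60244118 to 60250495, plus strand) had 0.880, 1.30 and 2.16 FPKM among WT and 1.82 and 0.533 among Ins2-AKITA mice. With 1 annotated transcript, these values come to 2.98, 4.97 and 17.9 fragments in the WT group and 5.95 and 1.98 in the Ins2-AKITA group. The groups overlapped, and a difference of -0.20 (log2, standard error 0.55, adjusted p = 0.96 from limma) was not detectable at this depth. Its sign turned without WT replicate 3, without Ins2-AKITA replicate 2 and with TPM.

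*Shisa3* (ENSMUSG00000050010, chromosome 5 from 67999122 to 68014791, plus strand) had 1.40, 1.88 and 0.199 FPKM in WT and was listed at 0 in both Ins2-AKITA mice. Its mean over the 5 mice was under 1 FPKM, and it was not tested. At the 3759-base coding transcript the WT values stand for 5.73, 8.72 and 1.99 fragments. A count of 0 allows up to 3 fragments, which would be 0.760 and 0.666 FPKM in the Ins2-AKITA mice. WT replicates 1 and 2 were above these limits and WT replicate 3, the deepest library, was below both. At the other annotated transcript, of 1710 bases, the limits would be 1.80 and 1.58 FPKM, and WT replicate 2 alone was above them. *Shisa3* also shares 138 exon bases with *Atp8a1*, a lipid flippase gene on the opposite strand with 30.7 to 40.3 FPKM, and the strand setting used to assign reads is not given in the sources used here.

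*Shisa4* (ENSMUSG00000041889, chromosome 1 from 137267634 to 137271814, minus strand) had 24.2, 29.5 and 37.4 FPKM in WT, against 33.7 and 33.3 in Ins2-AKITA mice, both within the WT range. The log2 difference was 0.16 (standard error 0.23, adjusted p = 0.93 from limma).

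*Shisa5* (ENSMUSG00000025647, chromosome 9 from 108941079 to 108960238, plus strand) differed more within the Ins2-AKITA group than between genotypes. It had 29.0, 22.8 and 35.7 FPKM for WT, against 58.8 and 21.7 for Ins2-AKITA mice, which were the highest and the lowest of all 5. The log2 difference was 0.31 (standard error 0.43, adjusted p = 0.92 from limma), and -0.39 without Ins2-AKITA replicate 1. *Shisa5* has 16 annotated transcripts, and its coding ones run from 347 to 1852 bases, so that its FPKM too depends on the transcripts the fragments are assigned to.

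Of the 7 members, 6 had a mean of at least 1 FPKM. Leaving *Shisa6* aside, limma called 0 of the 5 tested members at an adjusted p of 0.05, and 0 had an unadjusted p under 0.05, as 4.46% of all symbols did. Over all genes it called 0.0% higher and 0.0246% lower in Ins2-AKITA mice (0 and 4 of 16286).

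Genes of the receptors and pathways tied to Shisa proteins were looked at in 4 lists. The directions below are those of the deposited values, since with TPM every tested gene of the 4 lists had a positive difference and the list medians stood at 0.39, 0.40, 0.09 and -0.11 from the median of all genes (AMPA, GABA-A, receptor and p53 lists in turn). Of 28 AMPA receptor subunits, auxiliary and scaffold genes, all 28 were tested and limma called 0, with 1 at an unadjusted p under 0.05. Their median log2 difference was 0.06, against -0.03 for all genes, with 14 higher and 14 lower. *Prrt1*, an auxiliary protein of AMPA receptors, had 35.0, 20.7 and 22.8 FPKM among WT and 17.3 and 10.9 among Ins2-AKITA mice (log2 difference -0.84, adjusted p = 0.90 from limma). *Porcn*, a Wnt acyltransferase also found with AMPA receptors, stood at -0.81. At the other end were *Abhd6*, a lipase that binds AMPA receptors, at 0.59, and *Cacng7*, a transmembrane AMPA receptor regulatory protein, at 0.44. Both Ins2-AKITA mice were above all WT mice for 6 of the 28 genes (21.4%, against 9.24% of all genes) and below for 3 (10.7%, against 10.3%).

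Of 24 GABA-A receptor genes, 17 were tested and limma called 0, with 0 at an unadjusted p under 0.05. Their median was 0.22, with 12 higher and 5 lower. Both Ins2-AKITA mice were above all WT mice for 7 of the 17 (41.2%, against 9.24% of all genes) and below for none (against 10.3%). Among the receptor subunits at the ends were *Gabra3* (0.71), *Gabrb1* (0.44) and *Gabrg3* (-0.72). *Gabra3* had 16.7, 17.7 and 20.9 FPKM in the WT group and 22.1 and 42.6 in the Ins2-AKITA group, so the size of its difference came mostly from Ins2-AKITA replicate 2.

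Of 20 Frizzled, Wnt co-receptor and FGF receptor genes, set beside *Shisa2* and *Shisa3*, 18 were tested. Limma called 0, with 0 at an unadjusted p under 0.05, and the median was 0.07 with 12 higher and 6 lower. Both Ins2-AKITA mice were above all WT mice for 3 of the 18 (16.7%, against 9.24% of all genes). They were below for 3 (16.7%, against 10.3%). The lowest were *Fzd4*, the Norrin and Wnt receptor of brain endothelium (12.4, 10.7 and 7.20 FPKM in WT, 6.92 and 6.07 in Ins2-AKITA mice, log2 difference -0.54), and *Fgfr1* at -0.36. The highest were *Fgfrl1*, an FGF receptor without a kinase domain, at 0.59, and *Fzd8* at 0.45. The smallest adjusted p of this list was 0.90.

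Of 20 p53 pathway genes, set beside *Shisa5*, 19 were tested. Limma called 0, with 0 at an unadjusted p under 0.05, and the median was -0.0045 with 9 higher and 10 lower. Both Ins2-AKITA mice were above all WT mice for 1 of the 19 (5.26%, against 9.24% of all genes). They were below for 3 (15.8%, against 10.3%). *Cdkn1a*, the cell cycle inhibitor induced by p53, had 36.1, 6.69 and 6.91 FPKM in WT, against 8.07 and 6.01 in Ins2-AKITA mice, so that WT replicate 1 alone set its difference of -0.72. *Pdcd6*, a calcium-binding protein that binds SHISA5, had 6.60, 8.16 and 12.7 FPKM among WT and 14.3 and 16.2 among Ins2-AKITA mice (0.72). *Fas*, a death receptor, stood at -0.63 with overlapping groups. Of the other Shisa-type genes, *Shisal2a* and *Shisal2b*, listed as *Fam159a* and *Fam159b*, were at 0 in all mice, and *Shisa8* and *Shisal1* matched no symbol.

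**Figure D4:**
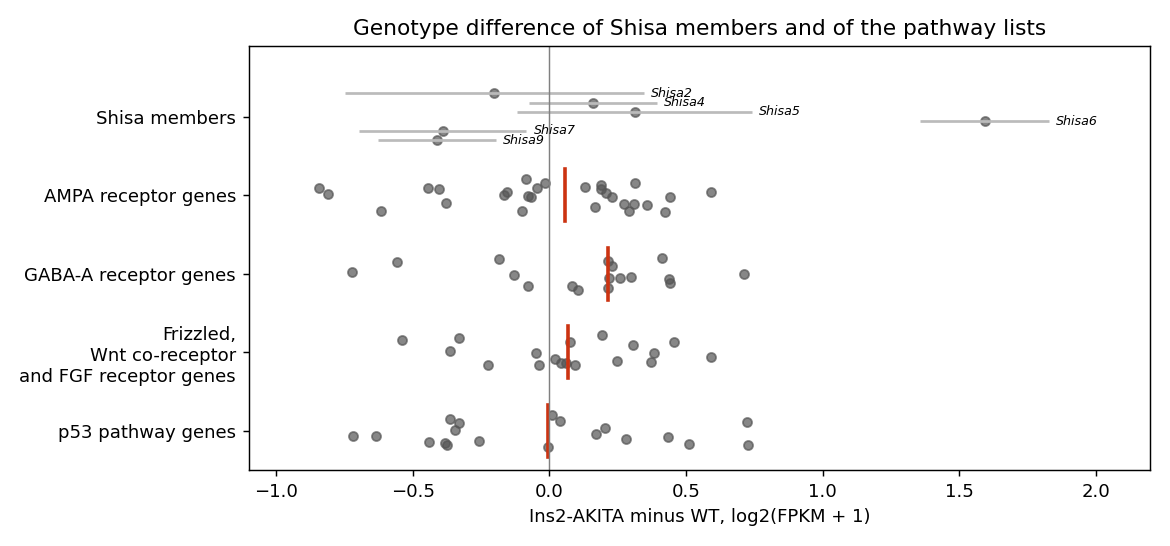
Ins2-AKITA minus WT difference on the log2(FPKM + 1) scale (horizontal axis) for the tested Shisa members, with standard errors as grey bars, and for the tested genes of the 4 lists, 1 point per gene with red lines at the list medians. *Shisa6* stands at 1.59, to the right of every list gene.

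The cell type lists moved between mice, and 1 of them in the order of *Shisa6*. The summed FPKM of 9 astrocyte markers was 2284, 2684 and 3192 in the WT group and 3557 and 4192 in the Ins2-AKITA group, the same order of the 5 mice as for *Shisa6*. The ratio of Ins2-AKITA to WT means was 1.42 for this sum, against 3.07 for *Shisa6*. Both Ins2-AKITA mice were above all WT mice for 4 of the 9 markers, against 9.24% of all symbols, no marker was at 0 in any mouse, and limma called none of the 9. *Shisa6* came to 1.04%, 0.990% and 1.08% of the astrocyte sum in WT and to 2.14% and 2.34% in Ins2-AKITA mice. Relative to this astrocyte sum, *Shisa6* was 2.16 times higher in Ins2-AKITA mice with no overlap between the groups. *Slc1a2*, with 1013 to 2110 FPKM, weighs most in the sum. The log2 differences of single markers ran from 0.31 (*Gjb6*) to 1.03 (*Aldh1l1*), so the figure holds for this sum only. These percentages contain the *Shisa6* values that led to its choice and are a description.

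The 13 neuronal markers summed to 1945 to 2087 FPKM in WT, against 2087 and 2462 in Ins2-AKITA mice, a ratio of 1.12, and *Shisa6* relative to this sum was 2.74 times higher in Ins2-AKITA mice. The 7 cerebellar neuron markers summed to 56.3, 83.1 and 72.1 FPKM among WT and 85.0 and 39.4 among Ins2-AKITA mice. *Zic1* was the largest of them in every mouse. Its value was 57.6 FPKM for Ins2-AKITA replicate 1 but 13.9 for Ins2-AKITA replicate 2, whose low sum follows this gene. The log2 difference was positive for *Calb1* (0.48) and *Car8* (0.80). It was negative for *Zic1* (-0.71), *Pcp2*, *Cbln1*, *Cbln3* and *Neurod1*, so the figure holds for this sum only. The 14 endothelial markers summed to 1078, 1211 and 759 FPKM in the WT group and 800 and 618 in the Ins2-AKITA group, a ratio of means of 0.70 that turned to 2.28 with TPM. The endothelial sums of the groups overlapped, and limma called 0 of the 14 markers. Both Ins2-AKITA mice were below all WT mice for 4 of the 14, against 10.3% of all symbols. The smooth muscle list had a ratio of 0.68 and the red blood cell list one of 0.53, both with sums that did not overlap. Limma called 0 markers of either list. For 4 of 6 smooth muscle and 1 of 5 red blood cell markers, both Ins2-AKITA mice were below all WT mice, against 10.3% of all symbols. The red blood cell sums lay close, from 35.1 FPKM upward in WT and up to 32.4 in Ins2-AKITA mice. The pericyte list had a ratio of 0.87 with overlapping sums. The other lists had ratios of 0.97 for microglia and macrophages, 0.97 for oligodendrocyte precursors, 1.01 for oligodendrocytes, 0.93 for ependymal and choroid plexus cells and 1.06 for fibroblasts. With TPM the ratios of the 12 lists ran from 1.82 (red blood cells) to 4.19 (astrocytes), and that of *Shisa6* was 9.03, while the percentages of *Shisa6* within a mouse do not depend on the scaling. Within each genotype the mouse with the highest *Shisa6* was also the one with the lowest share of small and ribosomal RNA genes in its FPKM sum (58.0% in WT replicate 3 and 40.6% in Ins2-AKITA replicate 2, against 89.6% to 96.7% in the others). The part of these differences between libraries in the *Shisa6* values was not tested.

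**Figure D5:**
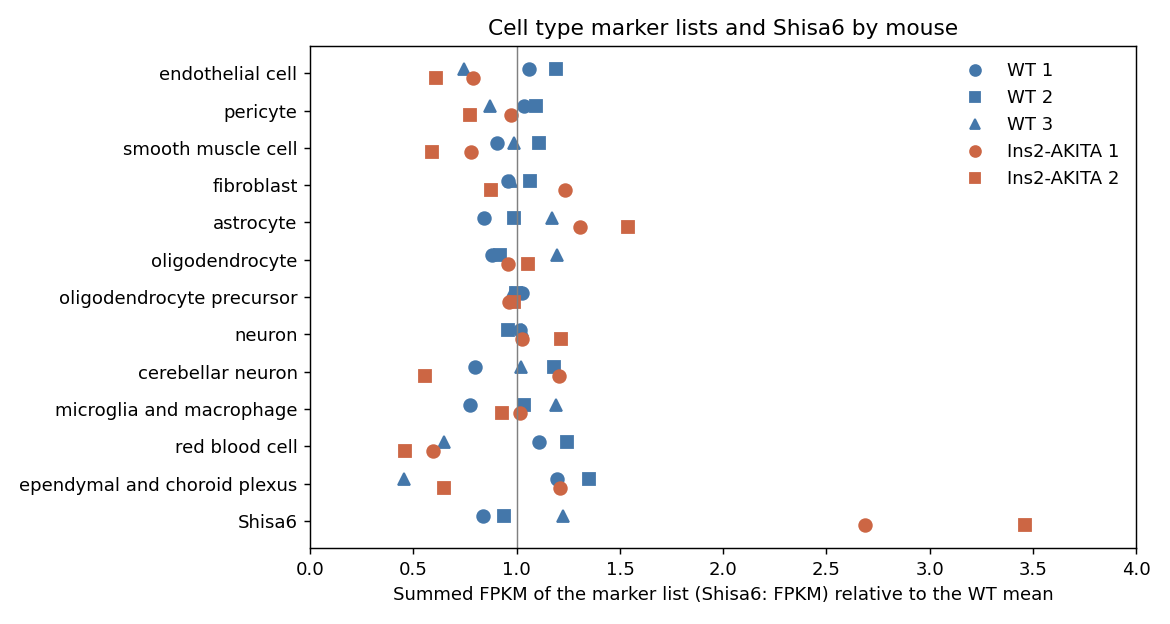
Summed FPKM of 12 cell type marker lists, and the FPKM of *Shisa6* (bottom row), each divided by its WT mean (horizontal axis, linear, grey line at 1). Blue symbols are WT and orange symbols Ins2-AKITA mice. The astrocyte sums of both Ins2-AKITA mice lie above all WT sums, and *Shisa6* lies further to the right than any list.

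The 5 genes whose centred log2(FPKM + 1) values over the 5 mice lay nearest to those of *Shisa6*, by Euclidean distance among all symbols tested, were *Gm11226*, *Gm16723*, *Rb1*, *Zfp14* and *Fmn1*. *Rb1*, the retinoblastoma tumor suppressor, had 10.4, 14.6 and 15.7 FPKM in WT, against 29.1 and 38.8 in Ins2-AKITA mice, a distance of 0.42. *Zfp14*, a zinc finger gene, had 1.34, 1.77 and 3.94 FPKM among WT and 7.12 and 7.91 among Ins2-AKITA mice (distance 0.49). *Fmn1*, a formin that nucleates actin filaments, had 34.8, 25.9 and 36.0 FPKM in the WT group and 103 and 107 in the Ins2-AKITA group (distance 0.50). *Gm11226* (distance 0.33) and *Gm16723* (distance 0.38) were at 0 in 2 of 3 WT mice and at most 3.05 and 2.63 FPKM elsewhere. Over 5 mice that share depth and library differences, such likeness is a description and follows from the search.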

How the data were processed

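Total RNA of PECAM1-captured microvessels was depleted of ribosomal and transfer RNA and sequenced. A stranded library kit was used, with 1 library per mouse (3 WT, 2 Ins2-AKITA). According to the methods, the authors mapped reads to NCBIM37 with TopHat2 2.0.4, filtered duplicates with Picard 1.92, tested with Cufflinks 2.2.1 and deposited 1 FPKM value per Ensembl gene and mouse. The program behind the values of single mice, the Ensembl release and the strand setting are not given in the sources used here. Removing duplicates can lower highly expressed genes, and division by length raises genes shorter than a fragment.

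Of 37982 identifiers, 37197 matched GENCODE vM1 (NCBIM37), and rows of 1 symbol were summed to 34615 symbols. Python 3.11.15 and limma 3.58.1 in R 4.3.3 were used. The 16286 symbols with a mean of at least 1 FPKM were tested on log2(FPKM + 1), a scale that understates changes of low genes (lmFit, eBayes with trend, genotype as the factor, two-sided, Benjamini-Hochberg, threshold 0.05). The fit was tested on simulated data. Depth came from genes with 1 transcript of at least 600 bases, where 97.9% to 98.1% of values up to 10 fragments fell within 0.1 of a whole number of fragments. For transcripts under 600 bases, the value of 1 fragment was read from genes within 5 bases of that length. Fragment numbers and limits cover counting error only.

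The members, lists and tests were chosen with earlier results of these data known. Named in the text were the 7 members, the 2 highest and 2 lowest genes of each list, and the 5 genes nearest to *Shisa6*. Some genes that this rule names are not reported here. *Gm12296*, *Gm15525* and *Atp8a1* were added for their position after their values were seen.

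Alternatives were another pseudocount (0.1), no filter or a minimum mean of 5 FPKM, 4 other scalings, no variance trend, the replicate number as a block, the highest row per symbol and leaving out each mouse in turn. No deposited column was left out.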

Additional observations from a re-analysis of the deposited data

How the results depend on the processing

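The *Shisa6* difference of 1.59 (log2) kept its sign under all alternatives tried. It was 1.41 to 1.77 when 1 mouse was left out and 2.97 with TPM, where the median of all genes was 1.07. The other scalings (protein-coding sum, median ratio, quantile) left it between 1.55 and 1.62. *Shisa6* was chosen for this difference. Since both Ins2-AKITA mice were above all WT mice, leaving out 1 mouse could not turn the sign, so these values are a description. No other member was called under any alternative, and the number called in each of the 4 lists stayed at 0. *Shisa4* kept its sign throughout. *Shisa2* turned from -0.20 to 0.18 with TPM and to 0.0014 with the replicate block, and ranged from -0.64 to 0.24 with 1 mouse left out. *Shisa5* (0.31) ranged from -0.39 without Ins2-AKITA replicate 1 to 1.01 without Ins2-AKITA replicate 2. *Shisa7* (-0.39) became 1.18 and *Shisa9* (-0.41) became 1.05 with TPM, and ranged from -0.76 to -0.02 and from -0.61 to -0.21 with 1 mouse left out. *Shisa3* (-1.02, not tested) was -3.26 with a pseudocount of 0.1 and -0.14 with TPM. Over all genes, 0 were called higher and 4 lower. With TPM these counts were 58 and 30, and without a variance trend 1 and 2. With no filter or a minimum mean of 5 FPKM, 2 were lower. With 1 mouse left out, 0 to 10 were higher (10 without Ins2-AKITA replicate 2, 3 without Ins2-AKITA replicate 1 and 1 without WT replicate 1) and 1 to 6 were lower (1 without either Ins2-AKITA mouse, 2 without WT replicate 2 and 6 without WT replicate 3). Where an Ins2-AKITA mouse was left out, the remaining one is assumed to vary like the WT mice. The cause of these changes was not tested.

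The replicate numbers are not stated to pair mice. WT replicate 3 has no partner, so the block fit gives the difference over replicates 1 and 2. With the replicate block, *Shisa6* stood at 1.74 and 5 genes were called lower, with 1249 in place of 726 at an unadjusted p under 0.05. Deviations from the genotype means correlated across genes at 0.05 and -0.03 for same-numbered mice. With 2 Ins2-AKITA mice these deviations mirror each other, so the check says nothing about pairing.

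Depth limits *Shisa2* and *Shisa3*, where single fragments move the values.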
